A study of Mus musculus with 32 samples.

Results

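The interferon gamma response of Dnmt1-silenced endothelial cells was read from 8 of the 32 RNA-seq libraries of the series, 4 of si-dnmt + IFN and 4 of si-dnmt, as the difference between these groups for every gene. All libraries that carried these group labels were taken, and 15254 of the 54532 genes in the count tables had enough reads to be tested. All 8 libraries came from Veravec cells, a cultured line of mouse lung endothelial cells (ECs), that had received siRNA against Dnmt1 in 2 transfections 24 h apart. The si-dnmt + IFN cells then had 1000 U/mL IFNγ for 16 h, and the si-dnmt cells had no cytokine. For comparison, 4 libraries each were used of ECs given a control siRNA without cytokine (si-control) and with the same IFNγ (si-control + IFN), and of Dnmt1-silenced ECs given 10 ng/mL TNFα for 16 h (si-dnmt + TNF). The model is 1 cell line in which siRNA left some Dnmt1 RNA, and the methods list 2 Dnmt1 siRNAs without saying whether they were pooled. The sample titles call the 4 replicates of a group biological and do not name their cultures, so p-values measure the spread between these libraries only. The comparison asks which genes IFNγ moves once the maintenance methyltransferase Dnmt1 has been reduced.

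IFNγ binds a receptor made of the IFNGR1 and IFNGR2 chains, whose kinases JAK1 and JAK2 activate STAT transcription factors. STAT dimers bind GAS elements near genes such as Irf1, and IRF1 with other interferon regulatory factors then acts at ISRE elements. Among the targets, CIITA is the master coactivator of MHC class II genes and NLRC5 that of MHC class I genes, SOCS1 shuts the JAK kinases down, and the chemokines CXCL9, CXCL10 and CXCL11 attract T cells and NK cells that carry CXCR3. ECs are among the cells that acquire MHC class II and raise MHC class I under IFNγ.

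Promoters of genes from 4 steps of this pathway are shown because the responses below begin there: a transcription factor (Irf1), a chemokine (Cxcl9), an effector GTPase (Gbp2) and a peptide transporter (Tap1). Each is the 250 bases before a RefSeq start site on GRCm38.p6, 5′ to 3′ on the gene's strand, with capitals marking a GAS-type motif (TTCNNNGAA, which reads the same on both strands) or an ISRE-type motif (GAAANNGAA, or TTCNNTTTC on the other strand). Irf1 had 2 start sites, and the window of the other one (chr11:53770223-53770472) held neither motif. Ciita is not shown.
Irf1, chr11:53769764-53770013, plus strand: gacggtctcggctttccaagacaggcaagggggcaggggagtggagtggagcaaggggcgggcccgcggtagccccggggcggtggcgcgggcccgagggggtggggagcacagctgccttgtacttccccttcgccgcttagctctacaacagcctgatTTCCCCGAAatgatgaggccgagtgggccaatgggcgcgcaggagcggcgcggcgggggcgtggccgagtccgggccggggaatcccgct
Cxcl9, chr5:92328080-92328329, minus strand: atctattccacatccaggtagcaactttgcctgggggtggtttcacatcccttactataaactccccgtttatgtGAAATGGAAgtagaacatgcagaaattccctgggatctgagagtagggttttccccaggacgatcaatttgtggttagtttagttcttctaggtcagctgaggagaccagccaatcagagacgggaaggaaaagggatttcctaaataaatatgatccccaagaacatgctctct
Gbp2, chr3:142620413-142620662, plus strand: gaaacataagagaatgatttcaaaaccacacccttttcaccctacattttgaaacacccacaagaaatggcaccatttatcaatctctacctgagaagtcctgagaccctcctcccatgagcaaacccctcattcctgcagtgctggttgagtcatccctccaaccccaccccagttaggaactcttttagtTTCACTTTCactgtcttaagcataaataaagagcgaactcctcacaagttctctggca
Tap1, chr17:34187306-34187555, plus strand: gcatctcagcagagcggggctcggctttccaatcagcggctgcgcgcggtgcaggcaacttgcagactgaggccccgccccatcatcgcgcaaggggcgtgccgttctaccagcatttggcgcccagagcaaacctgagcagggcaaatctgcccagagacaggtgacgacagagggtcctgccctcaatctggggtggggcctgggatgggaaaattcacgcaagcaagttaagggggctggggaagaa
The Irf1 window held a GAS-type match that began 90 bases before the start site, and the Cxcl9 and Gbp2 windows held ISRE-type matches that began 175 and 58 bases before it. The Tap1 window, which shares 225 bases with the window of its divergent neighbour Psmb9, held no match to these letters. Of 32851 promoters of this length in the table, 7.02% held a GAS-type match, 7.13% an ISRE-type match and 13.4% either. Only 315 of the 474 genes that rose at least 2-fold had a promoter in the table, which is under 80% of them. For that reason no comparison of motif shares between risers and other genes is given. A match describes the letters and does not show a binding site.

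The 8 libraries held 17908206 to 33500030 counts, of which mitochondrial genes took 2.40% to 4.03%, and detected 21097 to 22579 genes. Values of single libraries are given as TMM-scaled CPM, the counts of a gene scaled to the library's total, in the order of replicates 1 to 4. Dnmt1 measured 10.3, 12.4, 6.45 and 6.53 CPM in si-dnmt and 11.7, 11.1, 5.11 and 5.80 CPM in si-dnmt + IFN. All 8 lay below every si-control library (89.1 to 153 CPM without cytokine and 86.5 to 176 CPM with IFNγ), and IFNγ did not move Dnmt1 in the silenced cells by a called amount (log2 fold change −0.09 ± 0.35, edgeR adjusted p = 0.948, 95% interval −0.81 to 0.64). Replicates 3 and 4 of each group held less Dnmt1 than replicates 1 and 2. These also formed 2 replicate sets genome-wide: the first principal component of the 8 libraries (47.8% of variance) separated si-dnmt + IFN from si-dnmt, and the second (32.6%) separated replicates 1 and 2 from replicates 3 and 4. The labels name no batch behind the sets, so values within each set are given beside those of all 4 replicates. Of 30 endothelial identity genes 28 were tested, and their summed level was 8610 to 13300 CPM in si-dnmt and 8420 to 12100 CPM in si-dnmt + IFN. Cdh5, the adhesion protein of endothelial junctions, stood at 1536 to 2723 CPM in si-dnmt and 1440 to 2277 CPM in si-dnmt + IFN, while the lung capillary marker Car4 was at 0.

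Most markers of other cell types were low, with Cd68 and Acta2 as exceptions. Of 11 leukocyte markers 3 were tested, and their sum was 140 to 187 CPM in si-dnmt and 132 to 147 CPM in si-dnmt + IFN, most of it Cd68; the defining Ptprc had at most 3 counts in a library and Cd3e none. Of 8 epithelial markers 2 were tested (sum 8.32 to 22.5 and 8.74 to 17.8 CPM), and Epcam had at most 2 counts. Of 8 fibroblast markers 5 were tested (19.6 to 37.3 and 12.4 to 20.1 CPM, mostly Col3a1), and Tcf21 was at 0. Col3a1, a fibrillar collagen, was called lower (log2 fold change −0.92 ± 0.30, edgeR adjusted p = 0.0482), a call that needed si-dnmt replicates 1, 3 and 4 and si-dnmt + IFN replicates 1, 2 and 4 (left out singly, adjusted p = 0.0601 to 0.178). Of 8 pericyte and smooth muscle markers 4 were tested (40.3 to 185 and 84.7 to 232 CPM, nearly all Acta2), and Rgs5 was at 0. Their sum was lower with control siRNA, at 8 to 28 CPM in si-control and 21 to 70.5 CPM in si-control + IFN. The part of these markers in the results was not tested. In bulk libraries fewer cells of a type and less RNA per cell cannot be told apart.

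IFNγ moved 1375 genes in the silenced cells (9.01% of those tested), 1016 upward (6.66%) and 359 downward (2.35%). A gene is called here at an adjusted p under 0.05 by edgeR's quasi-likelihood test with Benjamini-Hochberg adjustment, and fitted log2 fold changes are given ± their SE (n = 4 per group). At least 2-fold changes were called for 573 genes (3.76%), 474 upward (3.11%) and 99 downward (0.649%), so rises outnumbered falls more strongly among large changes. Some large rises, among them Ciita and H2-Ab1, began near 0 and passed the read filter only through libraries with cytokine. Without the low-count filter, 479 genes rose and 79 fell by at least 2-fold. The median log2 fold change over all tested genes was −0.005, with 49.1% of genes above 0. With the replicate number as a block, which removes the difference between the sets, 2892 genes were called, 1665 upward and 1227 downward. The 2 sets alone called 2987 and 2449 genes, 1730 and 1418 of them upward. These fits hold 2 libraries per group, so their p-values measure only the spread within a set. That spread was small. Counts of 2 libraries of a group gave a chi-square per degree of freedom of 7.66 to 11.8 within a set and 58.3 to 86.8 across sets. A call in a set alone therefore leaves out the spread between the sets.

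**Figure D1:**
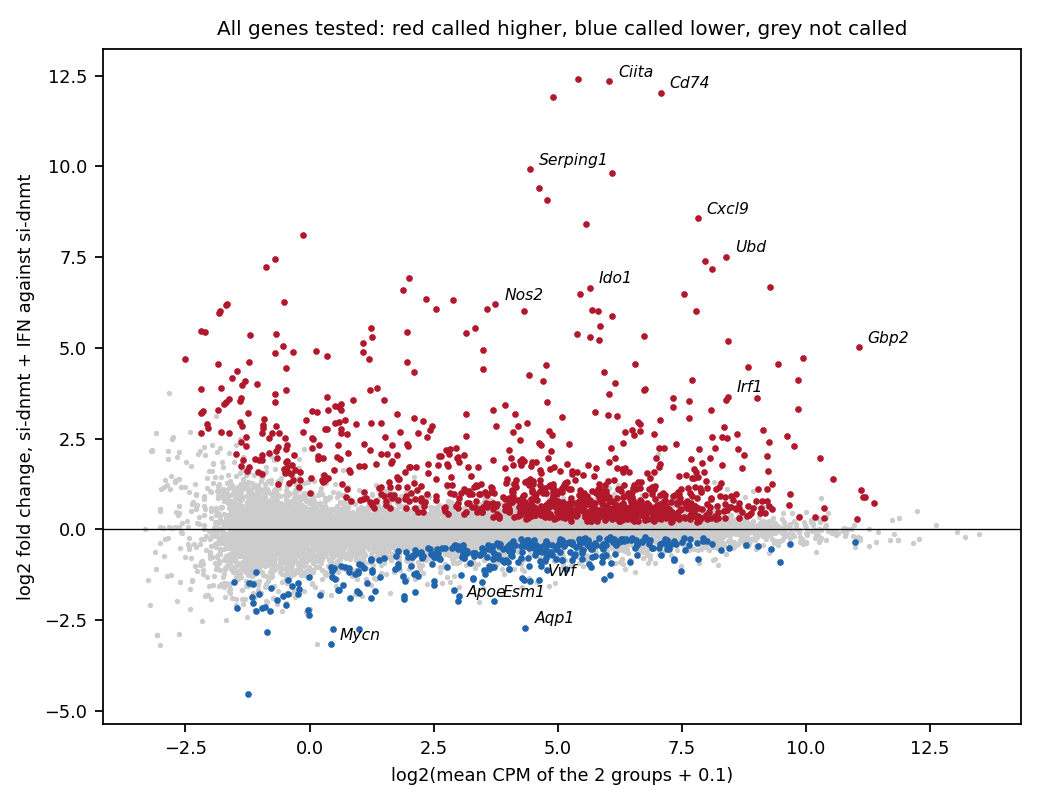
Fitted log2 fold change of si-dnmt + IFN against si-dnmt for the 15254 tested genes against their mean level, as log2(CPM + 0.1) of the mean over both groups. Red points are the 1016 genes called higher, blue the 359 called lower and grey those not called; the largest rises reach log2 fold changes above 12, and the lowest labelled point is Mycn at −3.17.

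In the receptor pathway, IFNγ raised Jak2 and lowered Ifngr1. Of the 11 receptor, JAK and STAT genes tested, 3 rose and 1 fell, with a median log2 fold change of 0.36. Jak2, the receptor-associated kinase, measured 73.4, 75.2, 76.1 and 72.4 CPM in si-dnmt and 186, 187, 148 and 150.4 CPM in si-dnmt + IFN, and the groups did not overlap (log2 fold change 1.17 ± 0.11, edgeR adjusted p = 8.19e-09). Stat2, a transcription factor of type I interferon signalling, also rose (log2 fold change 0.58 ± 0.15, edgeR adjusted p = 0.0143), but the call was lost without si-dnmt replicate 3 or 4 or si-dnmt + IFN replicate 1 or 2 (adjusted p = 0.058 to 0.0794). Ifngr1, the ligand-binding receptor chain, fell from 39.5, 39.8, 41.6 and 40.9 CPM to 30.5, 29.9, 29.5 and 28.5 CPM (log2 fold change −0.45 ± 0.11, edgeR adjusted p = 0.00652). Stat3 (0.51) and Ifngr2 (−0.31) were not called in the fit of all 4 replicates (edgeR adjusted p = 0.111 and 0.249) but were once the replicate block was added (0.00207 and 0.0169). Jak1, Stat6 and Tyk2 had log2 fold changes of 0.14, 0.18 and 0.19 and were not called.

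Of 13 feedback inhibitors and other signalling brakes, 3 rose (7 rose and 1 fell with the block). Socs1 measured 2.40, 1.97, 3.34 and 3.75 CPM in si-dnmt and 46.4, 44.6, 46.1 and 60.3 CPM in si-dnmt + IFN, with the groups far apart in every pair (log2 fold change 4.09 ± 0.28, edgeR adjusted p = 4.6e-12; 4.38 in replicates 1 and 2 alone and 3.91 in replicates 3 and 4 alone). Nmi, an interferon-inducible STAT-binding protein, measured 46.5 to 80.2 CPM in si-dnmt and 112 to 179 CPM in si-dnmt + IFN (log2 fold change 1.14 ± 0.22, edgeR adjusted p = 0.000634). Ptpn2, a phosphatase of JAK1, measured 21.6 to 25.7 CPM in si-dnmt and 34.3 to 42.8 CPM in si-dnmt + IFN (log2 fold change 0.64 ± 0.08, edgeR adjusted p = 1.28e-06). The libraries of the 2 groups did not overlap for any of these genes, as was so for 16.1% of all genes tested. Socs3 went from 44.6, 36.6, 11.7 and 14.3 CPM to 58.8, 65.6, 29.9 and 39.5 CPM; each IFNγ library was higher than its same-numbered partner, but the sets started from different levels, and over all 4 replicates it was not called without the block (edgeR adjusted p = 0.308) but was with it (1.86e-05). Usp18, which restrains type I interferon signalling, had a log2 fold change of 0.69 and was called with the block (blocked edgeR adjusted p = 0.0464) but not without it.

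Of 9 interferon regulatory factors tested, 3 rose. Irf1 measured 61.95, 55.95, 41.6 and 44.2 CPM in si-dnmt and 688, 712, 557 and 594 CPM in si-dnmt + IFN, and all 4 pairs rose alike (log2 fold change 3.65 ± 0.16, edgeR adjusted p = 2.47e-16; 3.57 in replicates 1 and 2 alone and 3.75 in replicates 3 and 4 alone). Irf8 measured 43.4, 36.7, 16.4 and 20.2 CPM in si-dnmt and 307, 304, 157 and 178 CPM in si-dnmt + IFN (log2 fold change 3.02 ± 0.40, edgeR adjusted p = 2.18e-06). In both groups its replicates 1 and 2 lay above replicates 3 and 4. Irf2, which can compete with IRF1 at its sites, rose less (44.8 to 53.6 CPM in si-dnmt and 75.1 to 94.8 CPM in si-dnmt + IFN, log2 fold change 0.78 ± 0.09, edgeR adjusted p = 2.2e-07). Irf7 (0.29) and Irf9 (−0.08), which serve type I interferon signalling, and Irf3 (0.12) were not called, nor were they with the block.

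MHC class II genes and their coactivator gave the 4 largest rises by the naming rule, from levels near 0. Of 15 listed genes 12 were tested, and 9 rose, with a median log2 fold change over the 12 of 8.59. Genes near 0 without cytokine, among them Ciita and H2-Ab1, passed the read filter only through libraries with cytokine. The count and the median therefore lean toward genes that respond. Ciita had 2 counts over the 4 si-dnmt libraries and 182, 186, 71.4 and 84.6 CPM in si-dnmt + IFN, a ratio of 6460 (95% counting interval 1790 to 53300). Cd74, the invariant chain, went from 6 counts in all to 393, 404, 133 and 145 CPM, a ratio of 4340 (1990 to 11800). Both were at or near 0 without IFNγ in every library, and with it replicates 1 and 2 held more than replicates 3 and 4. H2-Ab1, a chain of the I-A molecule, went from 1 count to 116, 130.3, 41.3 and 49.04 CPM, and its partner H2-Aa went from 1 count to 84.2, 105, 23.3 and 27.5 CPM. The ratios were 8240 (1480 to 326000) and 5790 (1040 to 229000), so the counts fix their size only within wide limits. H2-Eb1 had 7 counts and then 63.9, 85.1, 20.3 and 27.9 CPM, a ratio of 693 (336 to 1720). The peptide-exchange chains rose with them: H2-DMa measured 0.490, 0.642, 0.546 and 0.695 CPM in si-dnmt and 49.4, 53.3, 26.2 and 27.2 CPM in si-dnmt + IFN (log2 fold change 6.02 ± 0.40, edgeR adjusted p = 4.6e-12). H2-DMb1 measured 0.0683 to 0.171 CPM in si-dnmt and 34.8 to 78.7 CPM in si-dnmt + IFN (log2 fold change 9.06 ± 0.69, edgeR adjusted p = 6.1e-11). H2-DMb2, at 0 counts in all 4 si-dnmt libraries, reached 1.83, 2.02, 0.736 and 1.90 CPM, at least 13.9-fold higher against a floor of 3 counts per library. Rfx5, a subunit of the factor that recruits CIITA, rose by a log2 fold change of 0.55 ± 0.10 (edgeR adjusted p = 0.000325), and it was the only gene of that factor to be called. The fitted log2 fold changes of the low genes depend on the fit's prior count; edgeR called Ciita, Cd74, H2-Aa, H2-Ab1 and H2-Eb1 at adjusted p from 1.75e-10 to 3.43e-07. H2-Aa, H2-Ab1 and H2-Eb1 belong to a family of similar genes whose reads the counting could split.

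**Figure D2:**
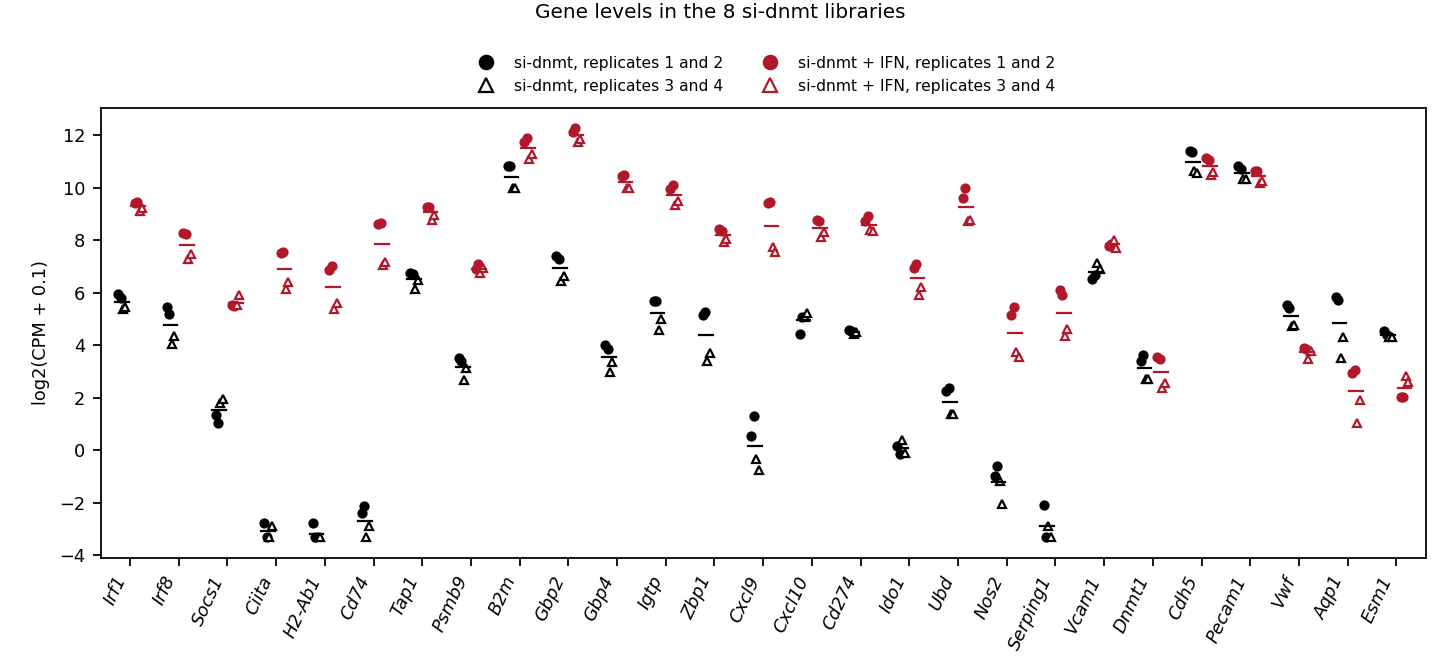
Level of 27 genes in each of the 8 libraries, as log2(CPM + 0.1), with si-dnmt in black and si-dnmt + IFN in red. Filled circles are replicates 1 and 2, open triangles replicates 3 and 4, and bars the mean of the 4 libraries; Ciita and Cd74 sit near the floor without IFNγ, and Irf1, Tap1, Gbp2 and Vcam1 start from clear levels.

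Most of the MHC class I pathway rose, from levels well above 0. Of 12 genes of class I assembly and loading, 9 rose (10 with the block), with a median log2 fold change of 1.59. The coactivator Nlrc5 measured 62.8, 75.3, 36.9 and 44.6 CPM in si-dnmt and 349, 308, 211 and 240.3 CPM in si-dnmt + IFN (log2 fold change 2.34 ± 0.25, edgeR adjusted p = 3.23e-08; 2.25 in replicates 1 and 2 alone and 2.47 in replicates 3 and 4 alone). The peptide transporter gene Tap1 measured 107, 105, 71.5 and 89.6 CPM in si-dnmt and 617, 622, 438 and 502 CPM in si-dnmt + IFN (log2 fold change 2.55 ± 0.19, edgeR adjusted p = 5.77e-11; 2.55 in replicates 1 and 2 alone and 2.55 in replicates 3 and 4 alone), and Tap2 rose by nearly the same amount (2.60). No si-dnmt library reached the lowest si-dnmt + IFN library for Nlrc5, Tap1 or Tap2. The class I heavy chain gene H2-K1 measured 321 to 717 CPM in si-dnmt and 1311 to 2672 CPM in si-dnmt + IFN (log2 fold change 1.97 ± 0.35, edgeR adjusted p = 0.000166). H2-D1, the other classical heavy chain tested, measured 631 to 1020 CPM in si-dnmt and 1561 to 2771 CPM in si-dnmt + IFN (log2 fold change 1.39 ± 0.25, edgeR adjusted p = 0.000174). Their light chain B2m measured 1015 to 1844 CPM in si-dnmt and 2201 to 3847 CPM in si-dnmt + IFN (log2 fold change 1.07 ± 0.23, edgeR adjusted p = 0.00192). Tapbp, Tapbpl and Erap1, for the bridging of MHC to the transporter, for peptide editing and for trimming of peptides, had log2 fold changes of 1.60, 2.67 and 1.59, all called, with edgeR adjusted p of 1.05e-05, 1.48e-13 and 2.68e-05. The general chaperone Calr (0.20) was not called. Among 12 non-classical class I genes 9 rose, including H2-T23 (24.9 to 60.8 CPM in si-dnmt and 239 to 479 CPM in si-dnmt + IFN, log2 fold change 3.07 ± 0.30, edgeR adjusted p = 1.04e-08), the ligand of CD94/NKG2 receptors, and H2-M3 (1.97), while Mr1, which presents metabolites to MAIT cells, was not called (0.26). H2-Q6 (3.87) and H2-Q7 (3.83) are near-identical and may share reads.

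All 6 immunoproteasome genes rose, and none of 5 subunits or activators of the standard proteasome was called. Psmb9, an inducible catalytic subunit, measured 11.4, 10.4, 6.31 and 8.62 CPM in si-dnmt and 119, 138, 107 and 125 CPM in si-dnmt + IFN (log2 fold change 3.73 ± 0.20, edgeR adjusted p = 2.48e-14; 3.56 in replicates 1 and 2 alone and 3.95 in replicates 3 and 4 alone). Psmb8 (2.72 ± 0.27) and Psmb10 (2.24 ± 0.17), the other inducible catalytic subunits, the PA28 activator genes Psme1 (1.66 ± 0.12) and Psme2 (1.93 ± 0.16) and the assembly factor Pomp (0.72 ± 0.13) rose as well, with edgeR adjusted p of at most 0.000141. Psmb5, Psmb6 and Psmb7, whose products the inducible subunits replace, had log2 fold changes of 0.09, 0.27 and 0.19. At an unadjusted p under 0.05, 2 of the 5 standard genes passed, 1 in each direction; DESeq2 called 0.

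Both families of interferon-inducible GTPases, which act against intracellular pathogens, rose in full. All 11 guanylate-binding protein genes rose (median log2 fold change 5.02), in all 4 replicates and in each set alone (medians 4.87 and 5.25). Gbp2 measured 167, 157, 87.4 and 99.8 CPM in si-dnmt and 4452, 4984, 3452 and 3681 CPM in si-dnmt + IFN (log2 fold change 5.02 ± 0.23, edgeR adjusted p = 8.77e-16). Gbp4 measured 15.8, 14.2, 7.82 and 10.1 CPM in si-dnmt and 1415, 1424, 1025 and 1020 CPM in si-dnmt + IFN (log2 fold change 6.67 ± 0.31, edgeR adjusted p = 8.95e-16). Gbp10 (7.16), Gbp8 (6.02), Gbp6 (5.18) and Gbp5 (4.55) rose strongly, and Gbp3 (2.02), Gbp9 (2.21) and Gbp7 (2.41), which began at 156 to 309.5 CPM, 96.6 to 179.6 CPM and 147 to 238 CPM, rose least. Gbp11 went from 0.128 to 0.445 CPM to 129, 153, 41.6 and 51.8 CPM (log2 fold change 8.41 ± 0.67, edgeR adjusted p = 1.41e-10). Gbp2b had 8 counts in si-dnmt, and its ratio of 30.2 (95% counting interval 15.1 to 70.7) may include reads of its close neighbour Gbp2. All 11 immunity-related GTPase genes rose too (median 4.11, and 3.81 and 4.64 in the sets). Igtp measured 51.8, 50.8, 23.6 and 31.6 CPM in si-dnmt and 1004, 1103, 653 and 721 CPM in si-dnmt + IFN (log2 fold change 4.47 ± 0.31, edgeR adjusted p = 1.04e-11). Irgm1 measured 224 to 355 CPM in si-dnmt and 1139 to 1770 CPM in si-dnmt + IFN (log2 fold change 2.28 ± 0.21, edgeR adjusted p = 2.96e-09). Tgtp1 and Tgtp2, near-identical copies that may share reads, had larger log2 fold changes in replicates 3 and 4 (4.83 and 5.29) than in replicates 1 and 2 (3.81 and 4.47), a difference that was called (edgeR adjusted p = 0.00029 and 0.00747).

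**Figure D3:**
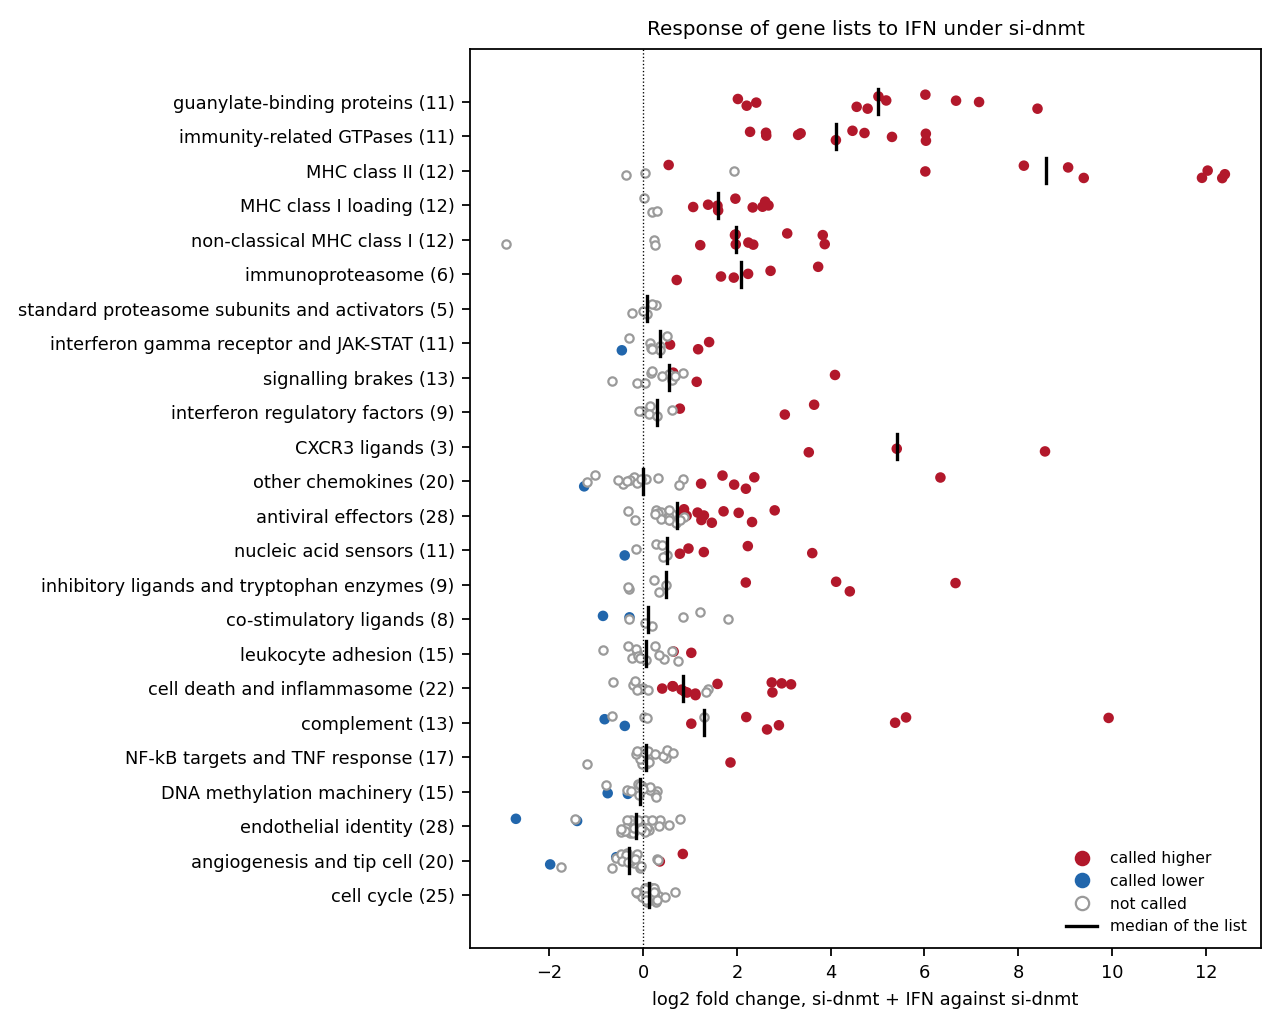
Log2 fold change of si-dnmt + IFN against si-dnmt for the tested members of 24 gene lists, 1 point a gene, with red for genes called higher, blue for genes called lower, open grey for genes not called and a black bar at the list's median. The guanylate-binding proteins, immunity-related GTPases and immunoproteasome lie wholly above 0, and the cell cycle list lies around 0.

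The 3 chemokines that bind CXCR3 all rose. Cxcl9 measured 1.34, 2.35, 0.683 and 0.487 CPM in si-dnmt and 687, 714, 212 and 190.2 CPM in si-dnmt + IFN (log2 fold change 8.57 ± 0.70, edgeR adjusted p = 2.51e-10). It rose in every replicate, and with IFNγ replicates 1 and 2 held more than replicates 3 and 4. Cxcl10 measured 21.7, 33.3, 33.8 and 37.4 CPM in si-dnmt and 434, 430.4, 279.6 and 319 CPM in si-dnmt + IFN (log2 fold change 3.53 ± 0.30, edgeR adjusted p = 6.1e-10). Cxcl11 went from 0.313 to 0.556 CPM to 22.4, 26.7, 9.98 and 9.46 CPM (log2 fold change 5.41 ± 0.68, edgeR adjusted p = 9.57e-07). Of the 20 other chemokine and growth factor genes 6 rose and 1 fell (8 and 2 with the block). Ccl7, a monocyte attractant, measured 5.67 to 12.1 CPM in si-dnmt and 20.2 to 67.8 CPM in si-dnmt + IFN (log2 fold change 2.37 ± 0.58, edgeR adjusted p = 0.00678), and Ccl8, another one, 0.0348 to 0.171 CPM in si-dnmt and 3.50 to 19.5 CPM in si-dnmt + IFN (log2 fold change 6.34 ± 0.80, edgeR adjusted p = 9.67e-07). Ccl5, which attracts T cells, measured 5.30 to 7.06 CPM in si-dnmt and 16.2 to 37.8 CPM in si-dnmt + IFN (log2 fold change 2.19 ± 0.37, edgeR adjusted p = 8.75e-05). The membrane-bound chemokine Cx3cl1 measured 27.7 to 51.02 CPM in si-dnmt and 102 to 141 CPM in si-dnmt + IFN (log2 fold change 1.69 ± 0.18, edgeR adjusted p = 6.15e-08), and Cxcl16, also made in membrane-bound form, had a log2 fold change of 1.24 ± 0.16 (edgeR adjusted p = 8.17e-07). Il15, which sustains NK cells and memory T cells, measured 9.17, 9.62, 7.24 and 5.98 CPM in si-dnmt and 35.2, 41.7, 19.8 and 26.1 CPM in si-dnmt + IFN (log2 fold change 1.94 ± 0.19, edgeR adjusted p = 1.29e-08). Cxcl10 and Ccl5 rose more in replicates 1 and 2 (3.97 and 2.73) than in replicates 3 and 4 (3.07 and 1.53; edgeR adjusted p of the difference = 0.0154 and 0.0178). Ccl2 (641 to 1155 CPM in si-dnmt and 1273 to 1967 CPM in si-dnmt + IFN, 0.85) was called with the block (edgeR adjusted p = 0.000391) and not without it (0.0763). The neutrophil attractant Cxcl5 fell (log2 fold change −1.26 ± 0.39, edgeR adjusted p = 0.0393), a call lost without si-dnmt replicate 3 or 4 or si-dnmt + IFN replicate 1 or 2 (adjusted p = 0.123 to 0.239).

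Inhibitory and co-stimulatory ligands moved unequally. Cd274, which encodes PD-L1, measured 23.6, 23.3, 21.5 and 22.3 CPM in si-dnmt and 427, 490.2, 334 and 323 CPM in si-dnmt + IFN, with flat levels before IFNγ and all 4 libraries raised with it (log2 fold change 4.12 ± 0.27, edgeR adjusted p = 2.76e-12; 4.29 in replicates 1 and 2 alone and 3.91 in replicates 3 and 4 alone). Ido1, a tryptophan-degrading enzyme, measured 1.02, 0.813, 1.19 and 0.834 CPM in si-dnmt and 123, 137, 59.9 and 74.9 CPM in si-dnmt + IFN (log2 fold change 6.66 ± 0.47, edgeR adjusted p = 9.66e-12). Its paralog Ido2 measured 0.834 to 1.16 CPM in si-dnmt and 19.4 to 24.2 CPM in si-dnmt + IFN (log2 fold change 4.41 ± 0.29, edgeR adjusted p = 4.31e-12). Tnfrsf14, the receptor HVEM, also rose (log2 fold change 2.19 ± 0.19, edgeR adjusted p = 9.29e-10), so that 4 of 9 tested genes of this list were called higher. Of 8 co-stimulatory ligands edgeR called 2 lower and 0 higher, while DESeq2 called 1 higher and 3 were higher at an unadjusted p under 0.05. Tnfsf4, the OX40 ligand, fell from 21.2, 17.1, 21.2 and 19.4 CPM to 11.2, 11.2, 11.2 and 10.1 CPM, with no overlap (log2 fold change −0.86 ± 0.21, edgeR adjusted p = 0.00635). Cd276 fell by 0.29 on the log2 scale, and lost its call without any of si-dnmt replicates 1, 3 and 4 or si-dnmt + IFN replicates 1 to 3 (adjusted p = 0.0704 to 0.127). Cd40 measured 1.34, 1.33, 2.32 and 2.12 CPM in si-dnmt and 2.95, 3.28, 3.13 and 3.49 CPM in si-dnmt + IFN; it was called with the block (adjusted p = 0.0249) and not without it (0.0749). Icosl stayed under 1 CPM in all 8 libraries (0.0445 to 0.478 CPM in si-dnmt and 0.317 to 0.547 CPM in si-dnmt + IFN).

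Among 15 leukocyte adhesion genes 2 rose. Vcam1, the ligand of α4 integrins, measured 91.4, 103, 139.9 and 119.6 CPM in si-dnmt and 223, 235, 257 and 211 CPM in si-dnmt + IFN, with the lowest IFNγ library above the highest without it (log2 fold change 1.03 ± 0.11, edgeR adjusted p = 4.78e-08; 1.24 in replicates 1 and 2 alone and 0.85 in replicates 3 and 4 alone). Podxl also rose (log2 fold change 0.65 ± 0.20, edgeR adjusted p = 0.0363), but the call ended when si-dnmt replicate 1 or 2 or si-dnmt + IFN replicate 3 or 4 was left out (adjusted p = 0.0993 to 0.142). Icam1, the ligand of LFA-1, measured 440, 459, 358 and 317 CPM in si-dnmt and 636, 632, 595 and 556 CPM in si-dnmt + IFN. Icam2 measured 84.8 to 128 CPM in si-dnmt and 139 to 213 CPM in si-dnmt + IFN. Their groups did not overlap, yet neither was called by edgeR over all 4 replicates (adjusted p = 0.0739 and 0.0535). With the block both were (adjusted p = 0.000883 and 0.000169), as they were in each set alone, and 5 genes of the list rose and 1 fell; DESeq2 without the block called Icam2 and not Icam1 (adjusted p = 0.0377 and 0.0654). Selp differed between the sets (−0.60 and 0.04; edgeR adjusted p of the difference = 0.00693), and Pecam1 was not called (−0.12).

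Antiviral genes rose in part. Of 28 tested, 14 rose, with a median log2 fold change of 0.73. In the sets alone 25 and 23 rose, and 18 with the block. Over all genes tested 1730 and 1418 rose in the sets and 1665 with the block. Samhd1, which depletes nucleotides, measured 83.7, 86.4, 72.8 and 81.9 CPM in si-dnmt and 692, 698, 409 and 472 CPM in si-dnmt + IFN (log2 fold change 2.81 ± 0.21, edgeR adjusted p = 3.85e-11). Mx1, a dynamin-like GTPase, measured 7.58 to 9.67 CPM in si-dnmt and 23.1 to 58.3 CPM in si-dnmt + IFN (log2 fold change 2.32 ± 0.47, edgeR adjusted p = 0.000888), and Ifit2 measured 129 to 199.7 CPM in si-dnmt and 502 to 932 CPM in si-dnmt + IFN (log2 fold change 2.04 ± 0.33, edgeR adjusted p = 5.53e-05). Their groups did not overlap. Oas3 (1.72), Trim21 (1.47), Oas2 (1.30), Parp14 (1.24) and Parp9 (1.16) rose by smaller log2 amounts. Isg15, a ubiquitin-like modifier, measured 111, 125, 64.8 and 87.99 CPM in si-dnmt and 191, 207, 119.7 and 156 CPM in si-dnmt + IFN. Each replicate was higher with IFNγ, though replicate 3 with IFNγ stayed below replicate 2 without it, and Isg15 was not called over all 4 replicates (edgeR adjusted p = 0.0732) but was with the block (0.00789) and in each set alone. Ifit1 (0.33), Rsad2 (0.55) and Eif2ak2 (0.28), textbook targets of type I interferon, were called neither with nor without the block over all 4 replicates. Of 11 nucleic acid sensors 5 rose and 1 fell. Zbp1, which senses Z-form nucleic acid, measured 35.1, 38.2, 10.5 and 13.00 CPM in si-dnmt and 341, 330.4, 243 and 262 CPM in si-dnmt + IFN (log2 fold change 3.61 ± 0.30, edgeR adjusted p = 2.87e-10). Ifi205, of the family that binds DNA, measured 45.3 to 51.6 CPM in si-dnmt and 186 to 283 CPM in si-dnmt + IFN (log2 fold change 2.23 ± 0.19, edgeR adjusted p = 4.89e-10), and Tmem173, which encodes STING, measured 38.97 to 81.2 CPM in si-dnmt and 103 to 183 CPM in si-dnmt + IFN (log2 fold change 1.30 ± 0.30, edgeR adjusted p = 0.0041). Aim2 fell from 15.6, 15.5, 15.9 and 14.5 CPM to 11.2, 12.1, 12.8 and 10.7 CPM (log2 fold change −0.39 ± 0.10, edgeR adjusted p = 0.0103), a call that did not hold without the low-count filter (adjusted p = 0.085). Ubd, which encodes the ubiquitin-like FAT10, measured 4.72, 5.01, 2.49 and 2.50 CPM in si-dnmt and 775, 1029, 425 and 437 CPM in si-dnmt + IFN (log2 fold change 7.51 ± 0.64, edgeR adjusted p = 6.1e-10), and the ISG15 enzymes Uba7 (1.18), Ube2l6 (1.15) and Herc6 (1.96) rose as well, 4 of 8 genes of ISG15 and FAT10 conjugation. Of 11 genes of type I and III interferons and their receptors only 4 had enough reads to be tested; Ifnb1 stayed at or under 0.294 CPM in all 8 libraries.

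Genes of cell death were raised in number: 13 of 22 rose, where 6.66% of all genes tested did. Among the 13, Ripk1 lost its call without si-dnmt replicate 3 or si-dnmt + IFN replicate 1 or 2 (edgeR adjusted p = 0.0529 to 0.0638). Casp1, the inflammasome protease, measured 1.56, 1.75, 1.13 and 1.04 CPM in si-dnmt and 9.34, 10.1, 8.37 and 8.83 CPM in si-dnmt + IFN, with tight replicates in both groups (log2 fold change 2.74 ± 0.31, edgeR adjusted p = 1.58e-07). Mlkl, the executor of necroptosis, measured 105 to 118 CPM in si-dnmt and 229 to 262 CPM in si-dnmt + IFN (log2 fold change 1.12 ± 0.10, edgeR adjusted p = 9.23e-10). Gsdmd, the pore former of pyroptosis, measured 83.6 to 98.8 CPM in si-dnmt and 148 to 170.2 CPM in si-dnmt + IFN (log2 fold change 0.82 ± 0.10, edgeR adjusted p = 4.71e-07). The death ligand Tnfsf10 (log2 fold change 2.96 ± 0.47, edgeR adjusted p = 4.36e-05), the receptor Fas (0.89) and Il18bp, the soluble inhibitor of IL-18 (log2 fold change 3.16 ± 0.36, edgeR adjusted p = 1.73e-07), rose too. Ripk3 (−0.14) and Casp8 (0.10) were not called. In the complement list 7 of 13 rose and 2 fell. Of these, Cfb, a rise, lost its call without si-dnmt replicate 3 or 4 or si-dnmt + IFN replicate 2 (adjusted p = 0.054 to 0.0628), and Cd55, a fall, lost it in each of 8 fits with 1 library left out except that without si-dnmt replicate 4 (adjusted p = 0.0598 to 0.119). Serping1, the C1 inhibitor, had 4 counts in si-dnmt and then 68.4, 60.2, 20.3 and 24.5 CPM, a ratio of 1050 (95% counting interval 408 to 3840). C1s1 measured 3.96, 3.42, 1.19 and 0.834 CPM in si-dnmt and 155, 185, 58.2 and 51.3 CPM in si-dnmt + IFN (log2 fold change 5.61 ± 0.76, edgeR adjusted p = 2.99e-06). C4b, a C4 gene, measured 4.50, 2.78, 0.307 and 0.521 CPM in si-dnmt and 126, 129, 30.9 and 38.7 CPM in si-dnmt + IFN (log2 fold change 5.37 ± 0.78, edgeR adjusted p = 9.56e-06). Both held less in replicates 3 and 4 in either group. C1ra (2.90) and C2 (2.64) rose. The membrane regulator Cd59a fell from 40.5, 41.96, 36.7 and 39.3 CPM to 19.2, 23.6, 24.2 and 22.7 CPM (log2 fold change −0.82 ± 0.14, edgeR adjusted p = 0.000114).

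Of 14 genes of nitric oxide, biopterin and arginine metabolism edgeR called 1, and of 19 of sterol synthesis 1, neither a greater share than over all genes (9.01%). Of 15 cathepsin and serpin genes 7 rose and of 6 Ly6 genes 4, where 6.66% of all genes did. Nos2, the inducible nitric oxide synthase, measured 0.401, 0.556, 0.341 and 0.139 CPM in si-dnmt and 35.8, 44.01, 13.3 and 11.7 CPM in si-dnmt + IFN (log2 fold change 6.20 ± 0.68, edgeR adjusted p = 7.79e-08), while its partners in biopterin and arginine supply, among them Gch1 (0.12) and Slc7a1 (−0.07), were not called. Nos3, the endothelial synthase, had a log2 fold change of −0.35 that edgeR did not call without the block (adjusted p = 0.0808), while edgeR with the block and DESeq2 without it did (adjusted p = 0.0258 and 0.0325). Ch25h, which makes 25-hydroxycholesterol and was the called gene of the sterol list, measured 17.8 to 23.6 CPM in si-dnmt and 47.1 to 50.3 CPM in si-dnmt + IFN (log2 fold change 1.21 ± 0.19, edgeR adjusted p = 3.83e-05). Ctss, a protease that processes the invariant chain, measured 0.401, 0.428, 0.307 and 0.243 CPM in si-dnmt and 29.9, 34.4, 14.3 and 14.4 CPM in si-dnmt + IFN (log2 fold change 6.07 ± 0.55, edgeR adjusted p = 2.41e-09), while the lysosomal protease Ctsd was not called (−0.16). Serpina3f measured 3.43, 4.62, 2.15 and 1.74 CPM in si-dnmt and 586, 665, 362 and 373 CPM in si-dnmt + IFN (log2 fold change 7.39 ± 0.70, edgeR adjusted p = 4.93e-09), in a cluster of similar genes that may share reads. Ly6a, the Sca-1 antigen, measured 186 to 254 CPM in si-dnmt and 1041 to 1699 CPM in si-dnmt + IFN (log2 fold change 2.56 ± 0.18, edgeR adjusted p = 1.52e-11), and Ly6c1 measured 35.3 to 67.8 CPM in si-dnmt and 352 to 647 CPM in si-dnmt + IFN (log2 fold change 3.28 ± 0.35, edgeR adjusted p = 3.78e-08), with its near-copy Ly6c2 (2.92). Of the 12 largest rises by the naming rule, drawn from 869 genes, 8 are described with MHC class II and complement, and Cxcl9, Gbp11 and Ubd above. The remaining one was Apol6, an apolipoprotein L family gene, at 0.0890, 0.128, 0.137 and 0.209 CPM in si-dnmt and 159, 160.2, 111 and 114 CPM in si-dnmt + IFN (log2 fold change 9.82 ± 0.31, edgeR adjusted p = 5.23e-19; 10.44 in replicates 1 and 2 alone and 9.30 in replicates 3 and 4 alone).

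Falls were fewer and smaller. The largest by the naming rule came from 325 genes. Aqp1, an endothelial water channel, measured 56.7, 52.9, 11.2 and 19.8 CPM in si-dnmt and 7.67, 8.32, 1.93 and 3.66 CPM in si-dnmt + IFN, and the groups did not overlap even across the sets (log2 fold change −2.71 ± 0.47, edgeR adjusted p = 0.000146; −2.77 in replicates 1 and 2 alone and −2.39 in replicates 3 and 4 alone). Mycn measured 2.98, 3.25, 1.64 and 1.15 CPM in si-dnmt and 0.111, 0.252, 0.368 and 0.231 CPM in si-dnmt + IFN (log2 fold change −3.17 ± 0.84, edgeR adjusted p = 0.0123), from a low level that IFNγ brought to under 0.4 CPM in every library. Dkk2, a Wnt antagonist, measured 1.88 to 4.50 CPM in si-dnmt and 0.368 to 0.606 CPM in si-dnmt + IFN (log2 fold change −2.76 ± 0.50, edgeR adjusted p = 0.000311). Fam107a measured 0.890 to 3.30 CPM in si-dnmt and 0.210 to 0.414 CPM in si-dnmt + IFN (log2 fold change −2.76 ± 0.55, edgeR adjusted p = 0.000809), and St8sia6, a sialyltransferase, measured 1.25 to 1.88 CPM in si-dnmt and 0.173 to 0.462 CPM in si-dnmt + IFN (log2 fold change −2.38 ± 0.50, edgeR adjusted p = 0.00149). Apoe, a lipid carrier, fell by 1.99 on the log2 scale. Frmpd1 and the adhesion receptor Adgrl3 fell by 1.89 and 1.85. Tmem26 fell by 1.91 but lost its call without si-dnmt replicate 1 (adjusted p = 0.0672), and Fry, by 1.92, was called in only 2 of 8 fits with 1 library left out, those without si-dnmt replicate 3 or 4 (otherwise adjusted p = 0.071 to 0.154).

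Esm1, a tip cell and inflammation marker of ECs, measured 23.3, 20.7, 19.6 and 19.7 CPM in si-dnmt and 4.00, 3.99, 7.04 and 5.97 CPM in si-dnmt + IFN. It fell in both sets, with no overlap, and further in replicates 1 and 2 (log2 fold change −1.98 ± 0.27, edgeR adjusted p = 2.88e-06; −2.45 in replicates 1 and 2 alone and −1.61 in replicates 3 and 4 alone). Vwf, the endothelial clotting factor, measured 46.6, 42.2, 26.8 and 26.97 CPM in si-dnmt and 14.6, 14.2, 11.1 and 13.7 CPM in si-dnmt + IFN (log2 fold change −1.41 ± 0.27, edgeR adjusted p = 0.000413). Aqp1 and Vwf were the 2 of 28 endothelial identity genes that fell; an unadjusted p under 0.05 gave 4 lower and 0 higher, DESeq2 called 3 lower and 0 higher, and edgeR called 0 higher. The list's median log2 fold change was −0.15. With the block 7 fell and 2 rose: the falls included Sox17 (4.37 to 16.5 CPM in si-dnmt and 2.28 to 5.05 CPM in si-dnmt + IFN, blocked adjusted p = 0.000876), Flt1 (−0.48) and Tek (−0.47), and the rises were Flt4 (0.56) and Plvap (0.33). Over all genes tested the block called 1227 lower and 1665 higher. Cdh5 was called neither way (−0.20). Jag1, a Notch ligand, fell from 187, 208, 269.8 and 240.2 CPM to 151, 128, 173 and 156 CPM (log2 fold change −0.57 ± 0.14, edgeR adjusted p = 0.00635), and Cxcr4 was lower in each same-numbered pair (7.48, 5.09, 2.66 and 2.99 CPM in si-dnmt and 1.78, 2.52, 0.460 and 0.692 CPM in si-dnmt + IFN) but not called without the block (edgeR adjusted p = 0.114; 8.18e-05 with it). Jag1 and Esm1 were the genes called lower among 20 of angiogenesis and tip cells, and 2 were called higher, of which 0 were left without si-dnmt replicate 3 or 4 or si-dnmt + IFN replicate 1 or 2. Of 18 collagen and basement membrane genes 2 rose and 2 fell; 1 rise was left without si-dnmt replicate 2 or si-dnmt + IFN replicate 1, and 1 fall without si-dnmt replicate 1 or 4 or si-dnmt + IFN replicate 1, 2 or 4. Col4a5, a basement membrane chain, fell (150.3 to 191 CPM in si-dnmt and 119 to 122 CPM in si-dnmt + IFN, log2 fold change −0.54 ± 0.13, edgeR adjusted p = 0.00791), and Col8a1 rose (301 to 364 CPM in si-dnmt and 546 to 901 CPM in si-dnmt + IFN, log2 fold change 1.12 ± 0.18, edgeR adjusted p = 5.9e-05).

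Among 15 genes of DNA methylation 2 fell. Dnmt3b, a de novo methyltransferase, measured 7.08, 8.04, 6.83 and 6.36 CPM in si-dnmt and 4.34, 3.15, 5.34 and 3.95 CPM in si-dnmt + IFN (log2 fold change −0.76 ± 0.18, edgeR adjusted p = 0.00414; −1.03 in replicates 1 and 2 alone and −0.52 in replicates 3 and 4 alone, the latter not called, edgeR adjusted p = 0.0829). Dnmt3a fell by 0.33 on the log2 scale and lost its call without si-dnmt replicate 3 or 4 or si-dnmt + IFN replicate 1 or 2 (adjusted p = 0.0637 to 0.0979). Uhrf1, the partner that brings DNMT1 to replicated DNA, was not called (0.28). No cell cycle gene of 25 was called by edgeR or by DESeq2, 1 passed an unadjusted p under 0.05, and the block called 1, Top2a, higher (0.67, adjusted p = 0.0409).

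The same IFNγ in ECs with control siRNA called 2209 genes (14.5%), 1306 upward (8.56%) and 903 downward (5.92%); these libraries are separate from the 8 above. Of the 1016 genes raised in silenced ECs, 871 were also raised in si-control, which is 85.7% of the first list and 66.7% of the second. Of the 359 lowered, 278 were shared, 77.4% of the first list and 30.8% of the second. No gene was called in opposite directions. A gene called under only 1 siRNA is not thereby shown to differ, so the difference of the responses was tested itself, as the interaction of siRNA with IFNγ. It called 7 genes (0.0459%), all with a smaller rise in the silenced cells (lower, 0.0459%), and 404 at an unadjusted p under 0.05, of which 246 were lower and 158 higher. DESeq2 called 32, and the replicate block called 59, of which 56 were lower.
Among these 7 genes Zbp1 had the largest difference. It measured 3.43, 2.76, 3.87 and 2.06 CPM in si-control and 306, 351, 225 and 245 CPM in si-control + IFN. Each silenced library without cytokine held more than every si-control library (35.1, 38.2, 10.5 and 13.00 CPM), and with IFNγ the ranges of the 2 siRNAs overlapped (341, 330.4, 243 and 262 CPM). The log2 response was 6.54 in si-control and 3.61 in si-dnmt, a difference of −2.93 ± 0.41 (edgeR adjusted p = 0.000596). Psmb9 went from 2.72, 2.12, 4.31 and 3.72 CPM to 152, 162, 139 and 172 CPM in si-control. Each silenced library started above its same-numbered partner and ended below it (difference −1.86 ± 0.27, edgeR adjusted p = 0.000664). Apol10b, an apolipoprotein L gene, went from 1.22, 1.11, 2.51 and 2.11 CPM to 161, 173, 134 and 132 CPM in si-control and from 6.54, 7.10, 8.77 and 8.10 CPM to 168, 191, 188 and 176 CPM in si-dnmt. It too began higher in every silenced library (difference −1.85 ± 0.22, edgeR adjusted p = 4.62e-05). Gm12250, listed with the immunity-related GTPases, differed by −2.84 ± 0.45 (edgeR adjusted p = 0.0029). Zbp1, Psmb9, Apol10b and Gm12250 were called in each of 16 fits with 1 library left out. In a fit of only the 4 groups of this interaction, 4 of the 7 were not called: Zbp1 and Gm12250 (adjusted p = 0.0711 for both), Gbp2 (0.219) and Ube2l6 (0.476).
The other 3 were nearer the threshold. Gbp2 went from 76.3, 82.2, 78.7 and 82.6 CPM to 7600, 9241, 5886 and 5951 CPM in si-control (difference −1.47 ± 0.28, edgeR adjusted p = 0.0349). Its call was lost without replicate 1 or 2 of any of the groups except si-dnmt + IFN replicate 2, and without si-dnmt + IFN replicate 3 or 4 (adjusted p = 0.0506 to 0.123). Gbp8 (difference −1.86 ± 0.36, edgeR adjusted p = 0.0393) lost its call in the same fits and without si-dnmt replicate 4 (adjusted p = 0.0506 to 0.16). Ube2l6 (difference −0.76 ± 0.15, edgeR adjusted p = 0.0492) kept its call only without replicate 3 of si-control, si-control + IFN or si-dnmt, or without si-control replicate 4 (otherwise adjusted p = 0.0545 to 0.19).
The signed log2 fold change with IFNγ was lower under si-dnmt than under si-control for 7370 of all 15254 genes (48.3%), rises and falls together. Within lists the count was 11 of 11 guanylate-binding proteins (median log2 response 5.02 in si-dnmt and 6.49 in si-control), 11 of 11 immunity-related GTPases (4.11 and 5.43), 12 of 12 class I loading genes (1.59 and 2.18) and 27 of 28 antiviral genes (0.73 and 1.24). These lists hold many genes that IFNγ raised, while the 48.3% covers all genes, and the share among raised genes alone was not computed. Elsewhere the count was 6 of 11 receptor, JAK and STAT genes, 11 of 20 other chemokines and 9 of 15 cathepsins and serpins. It was 7 of 15 leukocyte adhesion genes and 3 of 8 co-stimulatory ligands. MHC class II had 9 of 12 lower (8.59 in si-dnmt and 9.55 in si-control). In si-control without cytokine H2-Aa, H2-Ab1 and H2-DMb2 had 0 counts, so their log2 responses there depend on the fit's prior count. The interaction was called for 0 of the 12 with or without the block, so a difference for this list is not shown. A lower log2 response did not fix the level reached with IFNγ. Cxcl9, not called in the interaction, went from a mean of 1.21 to 451 CPM in si-dnmt and from 0.0737 to 112 CPM in si-control. Gbp2 went from a mean of 128 to 4142 CPM in si-dnmt and from 79.9 to 7170 CPM in si-control. Few of the listed genes were called singly. With the replicate block the interaction was called lower for 7 guanylate-binding proteins, 6 immunity-related GTPases and 5 class I loading genes. Among the last were Tap1, Nlrc5, B2m and H2-K1. The block also called it lower for Irf1 (3.65 in si-dnmt and 4.40 in si-control, blocked edgeR adjusted p = 0.00101). Cd274 (4.12 and 5.80 in the same order, 0.000148) was called lower too. Without the block the interaction of Irf1 and Cd274 was not called (adjusted p = 0.379 and 0.0594). Among the falls, Aqp1 had log2 responses of −2.71 in si-dnmt and −2.68 in si-control, with a 95% interval of −1.27 to 1.20 for their difference. In the same order Esm1 had −1.98 and −1.83 (−0.90 to 0.59) and Mycn −3.17 and −3.47 (−2.30 to 2.90). Differences of these sizes could not be told from 0.

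**Figure D4:**
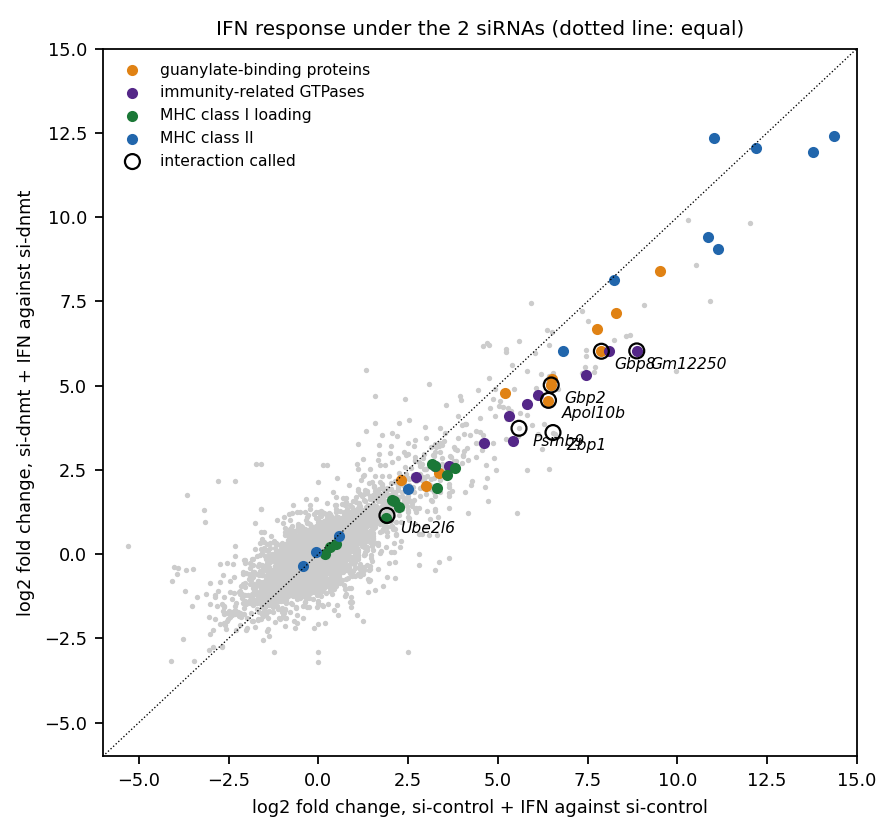
Log2 fold change with IFNγ in si-control (horizontal) and in si-dnmt (vertical), with grey for all tested genes and colour for members of named lists. The dotted line marks equal responses and circles mark the 7 genes of the called interaction, all of which lie under the line, as do all 11 guanylate-binding proteins.

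IFNγ was also set directly against TNFα in silenced ECs, with the same si-dnmt + IFN libraries as above. Altogether 2600 genes differed between si-dnmt + IFN and si-dnmt + TNF (17.0%), 1482 higher with IFNγ (9.72%) and 1118 higher with TNFα (7.33% lower with IFNγ). Higher with IFNγ were all 11 guanylate-binding proteins, all 11 immunity-related GTPases and 8 of 12 MHC class II genes. Apol6 measured 159, 160.2, 111 and 114 CPM with IFNγ and 0.503, 0.704, 0.138 and 0.411 CPM with TNFα (log2 fold change 8.25 ± 0.28, edgeR adjusted p = 3.34e-18). Ido1 measured 0.687, 2.07, 0.784 and 0.977 CPM with TNFα, all below the lowest level with IFNγ (log2 fold change 6.45 ± 0.47, edgeR adjusted p = 4.8e-11). Serping1 (7.17 ± 0.61) and H2-Eb1 (6.11 ± 0.71) were also among the 5 largest, and Fgl2 had 364 counts with IFNγ and 3 with TNFα, a ratio of 104 (95% counting interval 35.4 to 507). Ciita was not silent with TNFα (4.17, 4.83, 0.692 and 0.411 CPM), and neither was Cd74 (23.02, 19.01, 3.14 and 2.67 CPM), though both were lower than with IFNγ in every library.
On the other side stood 14 of 17 NF-κB targets and 12 of 20 other chemokines. Ccl20, which attracts CCR6-bearing cells, measured 56.2, 58.01, 26.6 and 19.7 CPM with TNFα and 0.334, 0.589, 0.736 and 0.202 CPM with IFNγ (log2 fold change −6.46 ± 0.50, edgeR adjusted p = 1.7e-10). Madcam1, a mucosal addressin, measured 20.8, 18.4, 3.78 and 4.22 CPM with TNFα and 0, 0.462, 0.0460 and 0 CPM with IFNγ (log2 fold change −6.51 ± 0.97, edgeR adjusted p = 1.42e-05). For Spib the ratio of TNFα to IFNγ was 214 (95% counting interval 73 to 1040) and for Mmp9, a matrix protease, 78.5 (33.3 to 243), and H2-M2, at 0 counts with IFNγ, was at least 23.1-fold higher with TNFα. Of the endothelial identity genes 9 of 28 were higher with IFNγ than with TNFα, and 5 without si-dnmt + IFN replicate 1 or si-dnmt + TNF replicate 3 or 4. With the block 21 were higher and 2 lower, and 16 and 24 were higher in the sets alone. Over all genes tested the block called 2557 higher and 2069 lower, and the sets called 2601 and 2075 higher. Aqp1 measured 1.65, 1.31, 0.461 and 0.617 CPM with TNFα, below its levels with IFNγ in each same-numbered pair. Of 25 cell cycle genes 9 were lower with IFNγ and 1 higher. Without si-dnmt + IFN replicate 2 or si-dnmt + TNF replicate 1, 5 were lower. In the sets alone 23 and 13 were lower, where the sets called 2275 and 1704 lower over all genes tested. Against si-dnmt, IFNγ raised 1 of the 17 NF-κB targets, Lif (log2 fold change 1.85 ± 0.26, edgeR adjusted p = 6.13e-06). Of the CXCR3 ligands Cxcl9 was higher with IFNγ (4.50 ± 0.56), while Cxcl10 measured 363, 339, 241 and 252 CPM with TNFα and was not called (0.29, edgeR adjusted p = 0.532), nor was Cxcl11 (0.19).

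The response in silenced ECs was compared between replicates 1 and 2 and replicates 3 and 4. Of 14721 genes tested in both sets, 1755 were called in both, 1752 in the same direction, which is 58.7% of the calls in replicates 1 and 2 and 71.5% of those in replicates 3 and 4. Of the 1375 genes called with all replicates, 1099 were called in each set alone in the same direction. The 3 genes called in opposite directions were Cebpd, a transcription factor (log2 fold changes −0.53 and 0.62, edgeR adjusted p of the difference = 0.0612), Pcdh17, a protocadherin (0.39 and −0.48, adjusted p = 0.0193), and Ifrd1 (0.27 and −0.36, adjusted p = 0.0306). The difference itself was called for 82 genes, 29 with a larger log2 fold change in replicates 3 and 4 and 53 with a smaller one. Zbp1 rose by 3.20 and 4.43 and Stat3 by 0.27 and 0.83, while Samhd1 (3.03 and 2.51), Mx1 (2.67 and 1.76) and Serpinb9 (2.08 and 1.33) rose more in replicates 1 and 2. For Zbp1 the sets met at a similar level with IFNγ and were apart without it. For Mx1 it was the reverse: 8.59, 9.67, 7.64 and 7.58 CPM without IFNγ and 57.9, 58.3, 23.1 and 28.3 CPM with it. Dnmt1 was also lower in replicates 3 and 4, and its part in these differences was not tested.

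**Figure D5:**
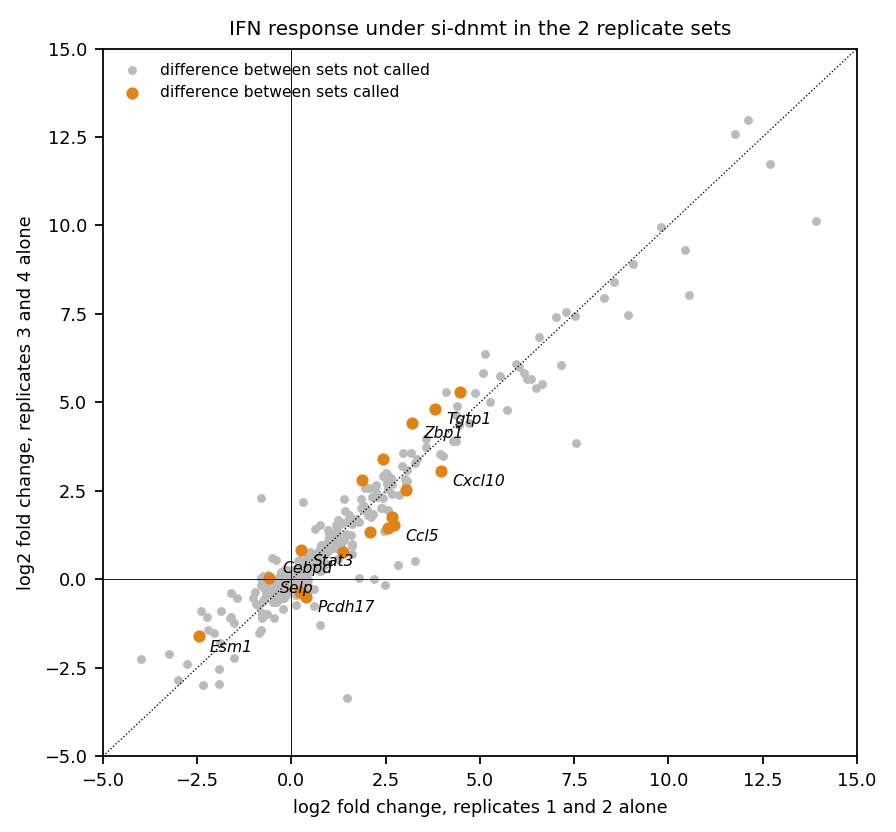
Log2 fold change of si-dnmt + IFN against si-dnmt in replicates 1 and 2 alone (horizontal) and in replicates 3 and 4 alone (vertical) for the genes named by the rule or in a list. Orange points are genes whose difference between the sets was called, and the dotted line marks equal responses; most points follow the line, with Zbp1 and Tgtp1 above it and Cxcl10 and Ccl5 below it.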

How the data were processed

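RNA was sequenced in 32 libraries, 4 in each of 8 groups formed by siRNA and cytokine, and groups and replicate numbers followed the sample titles. The authors trimmed reads with cutadapt 4.9 and counted them per gene with featureCounts, per the labels' processing notes, which also name FastQC 0.12.1, MultiQC 1.27.1 and DESeq2. Which aligner, build, annotation and strand setting they used was not given in the sources used here. Overlapping antisense genes therefore cannot be told apart. The deposited values are raw counts, 1 file per library with 54532 gene identifiers, and a merged table that sums the same counts by symbol (0 cells differed). Library totals ran from 17362546 to 33500030 (median 20859668). Counting intervals and floors cover counting error only.

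Genes were kept by filterByExpr (minimum count 10; 15254 of 54532) and tested with edgeR 4.0.16 (R 4.3.3), by TMM scaling and the quasi-likelihood F test on 8 group means, in 4 contrasts, with Benjamini-Hochberg adjustment over all tested genes. SE is the absolute log2 fold change over the root of F. Alternatives were RLE size factors, no filter, DESeq2 1.42.0, only the groups compared, each replicate left out, and the replicate block; the replicate sets as a block, and the test of the difference between the sets, were added after seeing the data. The main fit left the replicate number out, and only the alternative fit used it as a block. Deviations from group means correlated in every same-numbered pair of groups (r = 0.297 to 0.617 over 112 pairs). For si-dnmt and si-dnmt + IFN these were 0.502, 0.526, 0.617 and 0.585. The other member of the same set correlated at 0.523 to 0.557. That was above the same-numbered values in replicates 1 and 2 and below them in replicates 3 and 4. Members of different sets correlated at −0.514 to −0.59, though deviations that sum to 0 within a group favour values below 0. The numbers follow 2 sets, and whether they also mark 4 separate pairs was not settled. The test procedure was tested on simulated counts.

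Named genes were Dnmt1; the 12 largest rises and falls among called genes with at least 1 CPM in the higher group and the same direction in all 4 pairs; members of 35 gene lists; the 6 largest each way in the interaction; the 5 largest each way against TNFα; and genes called in opposite directions in the 2 sets, with Gm and Rik names passed over unless listed. The question, the lists and these rules were chosen with earlier results of these data known. The other 12 libraries, of the groups with both cytokines and of si-control with TNFα, entered no contrast. They did enter the read filter, the TMM scaling, the estimate of spread and the correlations between same-numbered libraries. A few genes named by these rules are not reported here.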

Additional observations from a re-analysis of the deposited data

Results flagged for a closer look

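The response to IFNγ differed between the siRNAs for 7 genes by the interaction test, all with a smaller log2 response under si-dnmt. The differences were −2.93 for Zbp1, −2.84 for Gm12250, −1.86 for Psmb9, −1.86 for Gbp8, −1.85 for Apol10b, −1.47 for Gbp2 and −0.76 for Ube2l6. For each of them the level without IFNγ was higher in si-dnmt than in si-control in mean CPM.

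In 9 of 334 groups of 4 libraries, 2.69%, 1 library lay far from the other 3. Chance gives about 1 in 20 where the 4 libraries are alike. Here si-dnmt and si-dnmt + IFN each fell into 2 replicate sets, so that rate is not a like measure. In si-dnmt, replicate 4 held 911.5 CPM of Calr against 1040 to 1057 in the others, 7.06 CPM of Ccl5 against 5.30 to 5.39, and 150.0 CPM of Psmb7 against 119.2 to 124.4. Replicate 3 of si-dnmt held 75.1 CPM of Psme2 against 88.9 to 89.1, and 81.5 CPM of Usp18 against 115 to 117. In si-dnmt + IFN, replicate 4 held 60.3 CPM of Socs1 against 44.6 to 46.4, and 10.1 CPM of Tnfsf4 against 11.2 CPM in each of the others. Replicate 1 held 49.0 CPM of Casp8 against 58.5 to 60.0, and replicate 3 held 0.736 CPM of H2-DMb2 against 1.83 to 2.02.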

How the results depend on the processing

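The 1375 genes called for IFNγ in si-dnmt became 2892 with the replicate block and 2976 with the replicate sets as a block, and 2987 in replicates 1 and 2 alone and 2449 in replicates 3 and 4 alone; leaving out 1 library gave 1048 to 1284. The 573 genes of at least 2-fold became 880 in replicates 1 and 2 alone and 493 to 590 with 1 library left out. For si-control the 2209 calls became 3880 and 3966 with the blocks, 3903 and 3331 in the sets, 1387 in a fit of only the groups compared, and 1749 to 2077. The 7 interaction calls became 59 and 67 with the blocks, 276 and 154 in the sets, 14 with RLE size factors, 12 without the low-count filter, 32 with DESeq2, 4 with only the groups compared, and 4 to 15 with 1 library left out. The lowest came without si-control replicate 1 or 2, si-control + IFN replicate 1, si-dnmt replicate 1 or 2, or si-dnmt + IFN replicate 1, 3 or 4, and 12 to 15 without si-control replicate 3 or 4, si-control + IFN replicate 3 or si-dnmt replicate 3. Against TNFα the 2600 calls became 4626 and 4736 with the blocks, 4876 in replicates 1 and 2 alone and 1896 to 2523. The cause of these shifts was not tested.

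No named gene that was called changed direction under any of these settings. Among uncalled genes, Cebpd turned to 0.017 with the replicate block, 0.023 with the set block and 0.62 in replicates 3 and 4 alone, and ranged from −0.40 to 0.13 with 1 library left out. Pcdh17 turned to −0.072 and −0.073 with the blocks and −0.48 in replicates 3 and 4 alone, and ranged from −0.15 to 0.26. Ifrd1 turned to 0.27 in replicates 1 and 2 alone and ranged from −0.32 to 0.10, Dnmt1 to 0.007 there and from −0.28 to 0.11, and Selp turned to 0.043 in replicates 3 and 4 alone. Of 182 named genes, the replicate block added 18 calls and ended 0 (DESeq2 added 3), and the call ended for 5 without the filter, for 6 with only the groups compared and for 4 in replicates 3 and 4 alone; of 1456 gene values with 1 library left out, 45 lost a call and 5 gained one. Of the list medians, 481 of 544 moved by less than the spread of the 4 pairs. Depth leaves the size of rises from under 10 counts open, as their counting intervals show.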

Other observations

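IFNγ also raised genes whose change against si-dnmt is not given above. Il18, the cytokine that IL18BP binds, measured 0.356, 0.257, 0.137 and 0.452 CPM in si-dnmt and 2.00, 1.89, 2.07 and 2.25 CPM in si-dnmt + IFN (log2 fold change 2.76 ± 0.38, edgeR adjusted p = 4.53e-06). Fgl2, a fibrinogen-like protein, measured 0 to 0.273 CPM in si-dnmt and 2.39 to 5.68 CPM in si-dnmt + IFN (log2 fold change 5.15 ± 0.44, edgeR adjusted p = 6.99e-10). Lif, an interleukin-6 family cytokine, rose more in replicates 1 and 2 (2.56) than in replicates 3 and 4 (1.44; edgeR adjusted p of the difference = 0.0489). Casp12 measured 32.04 to 50.6 CPM in si-dnmt and 106 to 164 CPM in si-dnmt + IFN (log2 fold change 1.59 ± 0.19, edgeR adjusted p = 5.17e-07), and Daxx, a chaperone of histone H3.3, measured 60.98 to 91.5 CPM in si-dnmt and 133 to 198 CPM in si-dnmt + IFN (log2 fold change 1.12 ± 0.23, edgeR adjusted p = 0.000966). All 4 same-numbered pairs rose for each of these genes.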
